A study of Mus musculus with 6 samples.

Results

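The genes described here are 7 genes of the stria vascularis that serve the endocochlear potential, *Kcnq1*, *Kcne1*, *Kcnj10*, *Slc12a2*, *Atp1b2*, *Bsnd* and *Esrrb*, taken by their symbols from the 51802 gene symbols of a bulk RNA-seq comparison of mouse cochleae. Their 23 listed transcripts were summed per symbol, and all 7 genes passed the filter on low counts that left 17136 genes in the test. The samples were 3 wildtype cochlear samples (replicates 3, 4 and 5) and 3 from *Pou4f3(Δ/+)* littermates (replicates 1, 2 and 3), all at 2 months of age on the C57/BL6J background named by the labels. *Pou4f3(Δ/+)* mice carry 1 knock-in allele of *Pou4f3*, a hair cell transcription factor, with a short deletion and a C-to-T change modelled on a deafness mutation, beside 1 wildtype allele in every cell. The background strain itself carries the *Cdh23(ahl)* hearing-loss allele, in wildtype and mutant alike. Whether a sample came from 1 animal or several was not given in the sources used here, so p-values measure only the spread between these samples.

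The stria vascularis lines the lateral wall of the cochlea and fills the endolymph with potassium at a high positive voltage, the endocochlear potential, which drives the current through hair cells. Its marginal cells take up potassium from the side facing the tissue through the Na,K-ATPase and the Na-K-2Cl cotransporter, return the chloride through channels that need the subunit barttin, and release the potassium into the endolymph through an apical channel made of KCNQ1 and KCNE1. Intermediate cells, which are melanocyte-like, set up the voltage through the inward rectifier KCNJ10, and basal cells join the stria to the fibrocytes of the spiral ligament. Loss of the channel subunits, the cotransporter or barttin is known to impair hearing in mice or people.

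Libraries held 14295069 to 17696784 summed counts, so that 1 count per kilobase of transcript was worth 0.0565 to 0.06995 FPKM (counted fragments relative to the length of the transcript and to the library's size). *Pou4f3* itself had 52 to 97 counts per sample and 1.99 ± 0.278 FPKM in wildtype against 1.91 ± 0.642 in *Pou4f3(Δ/+)* (mean ± SD, n = 3), and both alleles contribute to it, so it does not check the labels. *Pou4f3(Δ/+)* replicates 1 and 2 stood apart from the other 4 libraries. On the first principal component of all genes, which held 32.5% of the variance, they lay at 23.2 and 40.2, while the wildtype samples lay between -21.5 and -11.7 and *Pou4f3(Δ/+)* replicate 3 at -16.4. The median of 9 B cell markers, as log2 CPM (counts scaled to library size) relative to the wildtype mean, was 1.05 and 1.23 in those 2 libraries, 0.22 in *Pou4f3(Δ/+)* replicate 3 and -0.18 to 0.12 in wildtype. Mitochondrial genome transcripts took 3.84% and 4.002% of the counts in those libraries and 4.26% in *Pou4f3(Δ/+)* replicate 3, under the 4.30% to 4.54% of wildtype, and its part in the results was not tested. Results are also given without *Pou4f3(Δ/+)* replicate 3 and without replicates 1 and 2.

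By level per length, the 7 genes spanned a wide range, and the order of their means over all 6 samples was *Atp1b2*, *Slc12a2*, *Kcne1*, *Kcnj10*, *Esrrb*, *Kcnq1* and *Bsnd*. *Atp1b2* lay above *Slc12a2* in 6 of 6 samples although their ranges met, with 102.73 FPKM as the lowest *Atp1b2* value and 104.07 as the highest *Slc12a2* value. *Kcne1* and *Kcnj10* could not be ordered, since *Kcne1* was the higher of the pair in 3 of 6 samples. The other neighbours in the order did not overlap in any sample. Genes further apart could still cross, as *Kcne1* at 15.95 FPKM lay under *Esrrb* at 20.38 in *Pou4f3(Δ/+)* replicate 2.

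**Figure D1:**
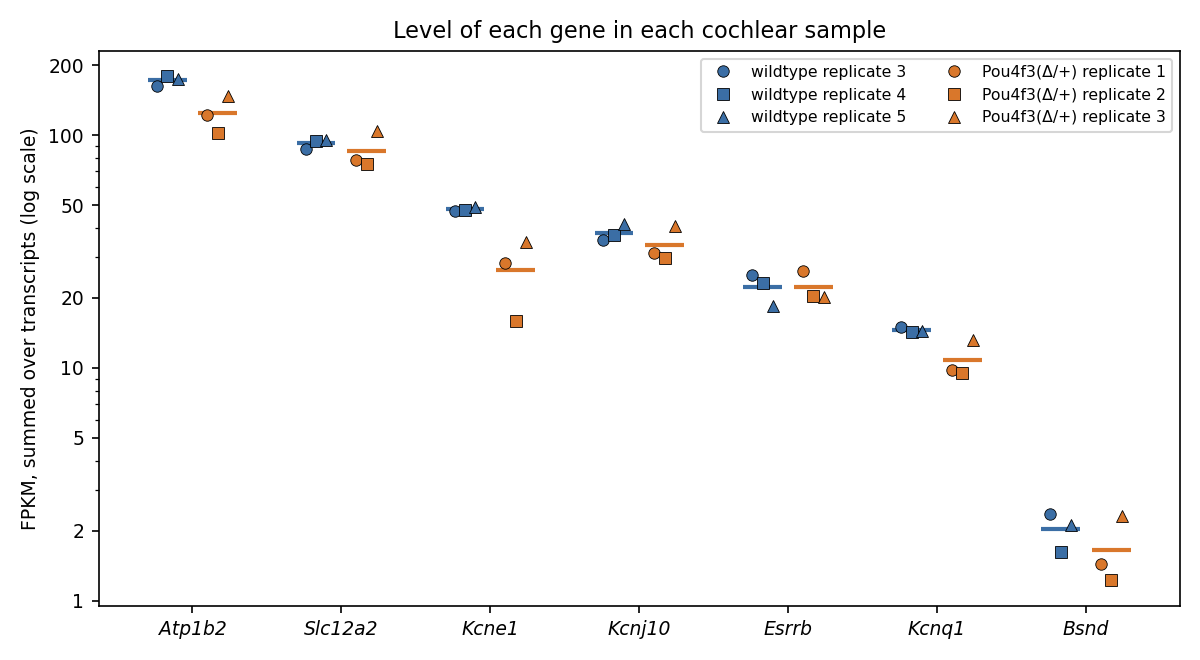
FPKM of each gene, summed over its transcripts, in each sample on a log axis, with points for samples and lines for group means (n = 3). For *Atp1b2*, *Kcne1* and *Kcnq1* every *Pou4f3(Δ/+)* point lies under every wildtype point, and for the other 4 genes the groups overlap.

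The comparison of the genotypes asks whether strial genes differ in cochleae with the *Pou4f3* mutation. *Kcne1*, *Atp1b2* and *Kcnq1* had lower levels in all 3 *Pou4f3(Δ/+)* samples than in any wildtype sample, by 43.9%, 29.0% and 26.8% in the fitted means, while *Esrrb* had the same mean level in both genotypes and *Kcnj10*, *Slc12a2* and *Bsnd* overlapped. None of the 7 genes passed the adjusted p threshold of 0.05 in edgeR's quasi-likelihood test, and neither did any other gene (0.0% of the genes tested, lowest adjusted p = 0.223). At an unadjusted p under 0.05, 3 of the 7 genes were lower and 0 were higher, beside 4.14% of all genes tested that were lower and 3.5% that were higher (7.64% in either direction). The number of genes with every *Pou4f3(Δ/+)* sample under every wildtype sample was also 3 of 7, against 6.59% of all genes tested, and 0 of 7 had all *Pou4f3(Δ/+)* samples higher than all wildtype ones, against 6.07%. In whole cochleae, fewer cells of a type and less RNA per cell cannot be told apart.

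The apical potassium channel is described first. *Kcne1* (ENSMUSG00000039639, GRCm38 chr16:92345982-92359468) encodes the small single-pass subunit that gives the channel its slow, large current. Its level was 47.13, 47.71 and 49.33 FPKM in wildtype replicates 3, 4 and 5, and 28.35, 15.95 and 34.71 FPKM in *Pou4f3(Δ/+)* replicates 1, 2 and 3. The wildtype samples lay close together and all *Pou4f3(Δ/+)* samples lay under them, with the lowest value in replicate 2 and the nearest to wildtype in replicate 3. The means were 48.1 ± 1.14 and 26.3 ± 9.54 FPKM (mean ± SD, n = 3), from 398 to 1304 counts per sample. The fitted log2 fold change was -0.84 (SE 0.24), with an unadjusted p = 0.00744 and an adjusted p = 0.643 by edgeR.

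*Kcne1* reads were divided between 2 transcripts that both had lower levels in *Pou4f3(Δ/+)*. ENSMUST00000051705, of 3174 spliced bases, held 76.7% of the gene's counts in wildtype, and ENSMUST00000166707, of 602 bases, held 61.4% of its FPKM, because the same count on a shorter transcript is a higher value per length. The longer transcript was at 18.6 ± 0.558 FPKM in wildtype and 10.6 ± 4.91 in *Pou4f3(Δ/+)*, with a log2 fold change of -0.81 (SE 0.30). The shorter one was at 29.5 ± 1.48 and 15.7 ± 5.25 FPKM, with a log2 fold change of -0.92 (SE 0.27). Their shares of the gene's counts were close in the genotypes, 77.7% and 22.3% in *Pou4f3(Δ/+)* against 76.7% and 23.3% in wildtype.

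*Kcnq1* (ENSMUSG00000009545, GRCm38 chr7:143106362-143427042) encodes the pore-forming subunit of the same channel. It was at 14.99, 14.25 and 14.40 FPKM in the wildtype replicates and at 9.79, 9.52 and 13.17 FPKM in the *Pou4f3(Δ/+)* replicates. All 3 mutant samples were under the wildtype range, and *Pou4f3(Δ/+)* replicate 3 was the closest to it. The means were 14.5 ± 0.391 and 10.8 ± 2.03 FPKM, and the log2 fold change was -0.45 (SE 0.13), with an unadjusted p = 0.00695 and an adjusted p = 0.643 by edgeR.

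The transcript ENSMUST00000009689, with 16 exons and 3029 spliced bases, held all of the *Kcnq1* FPKM in wildtype and 97.4% in *Pou4f3(Δ/+)*, with a log2 fold change of -0.47 (SE 0.15). Its exons share 121 bases with *Kcnq1ot1*, the antisense long RNA of the imprinted cluster. Whether counting used strand was not given in the sources used here, so reads over those bases cannot be assigned to one gene. *Kcnq1ot1* lay at 0.803 ± 0.142 FPKM in wildtype and 0.983 ± 0.0737 in *Pou4f3(Δ/+)*, and its fitted log2 difference of 0.29 (SE 0.13) had the sign opposite to that of *Kcnq1*.

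*Atp1b2*, *Slc12a2* and *Bsnd* serve uptake and chloride return on the tissue side of the marginal cell. *Atp1b2* (ENSMUSG00000041329, GRCm38 chr11:69599736-69605942) encodes the β2 subunit of the Na,K-ATPase, the form found in marginal cells. It was at 162.61, 180.12 and 174.43 FPKM in wildtype and at 122.91, 102.73 and 147.83 FPKM in *Pou4f3(Δ/+)*. The groups did not overlap, and *Pou4f3(Δ/+)* replicate 3 again lay nearest to wildtype. The means were 172 ± 8.93 and 124 ± 22.6 FPKM, from 4580 to 8687 counts per sample, and the log2 fold change was -0.49 (SE 0.12), with the smallest unadjusted p of the 7 genes, 0.00247 (adjusted p = 0.643, edgeR).

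The main coding transcript of *Atp1b2*, ENSMUST00000047889, held 89.0% of its FPKM in wildtype and fitted at -0.51 (SE 0.12), and the noncoding processed transcript ENSMUST00000130394 held 9.54% and fitted at -0.44 (SE 0.17). Over the 7 genes, 12 of the 23 transcripts passed the filter and 10 had at most 1 count, after rounding, in every sample. At an unadjusted p under 0.05, 5 of the 12 tested transcripts were lower, beside 2.19% of all 38347 transcripts tested, and 0 were higher, beside 1.95%. The 5 were both *Kcne1* transcripts, those 2 of *Atp1b2* and ENSMUST00000009689 of *Kcnq1*, and no transcript passed the adjusted threshold in edgeR (0.0% of those tested).

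*Slc12a2* (ENSMUSG00000024597, GRCm38 chr18:57878678-57946821) encodes NKCC1, the Na-K-2Cl cotransporter, which spiral ligament fibrocytes also carry. It was at 87.81, 94.87 and 95.13 FPKM in wildtype and at 78.63, 75.13 and 104.07 FPKM in *Pou4f3(Δ/+)*. *Pou4f3(Δ/+)* replicates 1 and 2 were the lowest 2 of the 6 samples and replicate 3 was the highest, so the groups overlapped. The means were 92.6 ± 4.15 and 85.9 ± 15.8 FPKM and the log2 fold change was -0.11 (SE 0.12, adjusted p = 0.816, edgeR).

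*Bsnd* (ENSMUSG00000025418, GRCm38 chr4:106483456-106492283) encodes barttin, the subunit that chloride channels of the marginal cell need at the membrane. It had the fewest counts of the 7 genes, 52 to 112 per sample. It was at 2.35, 1.62 and 2.11 FPKM in wildtype and at 1.44, 1.22 and 2.30 FPKM in *Pou4f3(Δ/+)*. Again *Pou4f3(Δ/+)* replicates 1 and 2 were lowest and replicate 3 lay inside the wildtype range. The means were 2.03 ± 0.372 and 1.65 ± 0.571 FPKM, and the log2 fold change of -0.31 had an SE of 0.27 (adjusted p = 0.777, edgeR).

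*Kcnj10* (ENSMUSG00000044708, GRCm38 chr1:172341210-172374085) encodes the inward rectifier of the intermediate cells, and is also used by glia and supporting cells. It was at 35.48, 37.26 and 41.50 FPKM in wildtype and at 31.25, 29.68 and 40.67 FPKM in *Pou4f3(Δ/+)*. Replicates 1 and 2 of *Pou4f3(Δ/+)* were under every wildtype sample and replicate 3 was not. The means were 38.1 ± 3.09 and 33.9 ± 5.94 FPKM and the log2 fold change was -0.17 (SE 0.12, adjusted p = 0.721, edgeR).

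*Esrrb* (ENSMUSG00000021255, GRCm38 chr12:86361117-86521628) encodes an orphan nuclear receptor that marginal cells need for their ion transport genes. It was at 25.10, 23.16 and 18.47 FPKM in wildtype and at 26.14, 20.38 and 20.15 FPKM in *Pou4f3(Δ/+)*. The lowest sample was wildtype replicate 5 and the highest *Pou4f3(Δ/+)* replicate 1, an order unlike that of the other 6 genes. The means were 22.2 ± 3.41 and 22.2 ± 3.39 FPKM, and the log2 fold change was -0.00 (SE 0.13, adjusted p = 0.993, edgeR).

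The listed transcripts of *Esrrb* begin at different starts, and its estimated counts fell almost wholly on transcripts of 1 start. The transcript ENSMUST00000110204, which starts at position 86421644, held 98.6% of *Esrrb* FPKM in wildtype and 98.3% in *Pou4f3(Δ/+)*. The transcript that starts upstream at 86361117, ENSMUST00000116402, was at 0 FPKM in every sample, where 3 counts on 1 kilobase would be 0.1695 to 0.210 FPKM (counting error only). These are estimated counts divided between overlapping transcripts, so the use of each start was not measured. The 250 bases before each of these starts are shown, from RefSeq's promoter table for GRCm38.p6, plus strand. Capitals mark the CCAAT box on either strand (CCAAT or ATTGG).
Esrrb upstream start, chr12:86360867-86361116: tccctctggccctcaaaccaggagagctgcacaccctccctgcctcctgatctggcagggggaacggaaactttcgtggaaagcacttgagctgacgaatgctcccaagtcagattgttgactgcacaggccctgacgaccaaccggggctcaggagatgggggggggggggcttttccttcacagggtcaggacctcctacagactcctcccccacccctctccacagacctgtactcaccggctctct
Esrrb downstream start, chr12:86421394-86421643: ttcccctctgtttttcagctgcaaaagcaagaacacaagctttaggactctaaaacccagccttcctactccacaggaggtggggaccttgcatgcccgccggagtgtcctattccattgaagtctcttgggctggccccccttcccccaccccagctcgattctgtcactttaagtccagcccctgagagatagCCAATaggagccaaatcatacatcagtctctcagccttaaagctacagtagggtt
The upstream window held no match and the downstream window held 1, which begins 55 bases before the start. A match on either strand was present in 33.8% of the 32851 promoter windows of that length in the table. *Kcnj10* was the only other of the 7 genes in the table. Its window, which held 2 matches, beginning 104 and 67 bases before the start, is shown for comparison with the *Esrrb* downstream start.
Kcnj10, chr1:172340960-172341209: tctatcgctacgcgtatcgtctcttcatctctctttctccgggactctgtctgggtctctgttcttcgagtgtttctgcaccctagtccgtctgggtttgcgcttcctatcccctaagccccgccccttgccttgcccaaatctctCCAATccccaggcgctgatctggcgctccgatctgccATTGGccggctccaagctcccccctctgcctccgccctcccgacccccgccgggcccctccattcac
The receptor motif AAGGTCA (or TGACCTT), which estrogen-related receptors are known to bind, was in none of these 3 windows and in 4.08% of all windows.

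The 6 genes other than *Esrrb* ranked the samples alike at the low end. *Pou4f3(Δ/+)* replicate 2 was the lowest sample for all 6 and replicate 1 the second lowest for all 6, and *Pou4f3(Δ/+)* replicate 3 came next for *Kcne1*, *Atp1b2* and *Kcnq1*. The median deviation of the 7 genes from the wildtype mean, in log2 CPM, was -0.47, -0.62 and -0.15 in *Pou4f3(Δ/+)* replicates 1, 2 and 3, against -0.01 to 0.03 in wildtype. Some other lists, described below, also had their lowest medians in *Pou4f3(Δ/+)* replicates 1 and 2. For *Pou4f3(Δ/+)* replicates 1, 2 and 3, basal cell genes were at -0.33, -0.33 and -0.01. Intermediate cell genes were at -0.13, -0.26 and -0.02, and glial markers at -0.24, -0.35 and 0.18. Hair cell markers (0.12, 0.20 and 0.09) and other marginal cell genes (0.001, -0.14 and -0.13) did not have this order. The 2 libraries with the lowest medians of the 7 genes were also those with the B cell marker medians of 1.05 and 1.23. The part of that difference between libraries in the results was not tested.

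**Figure D2:**
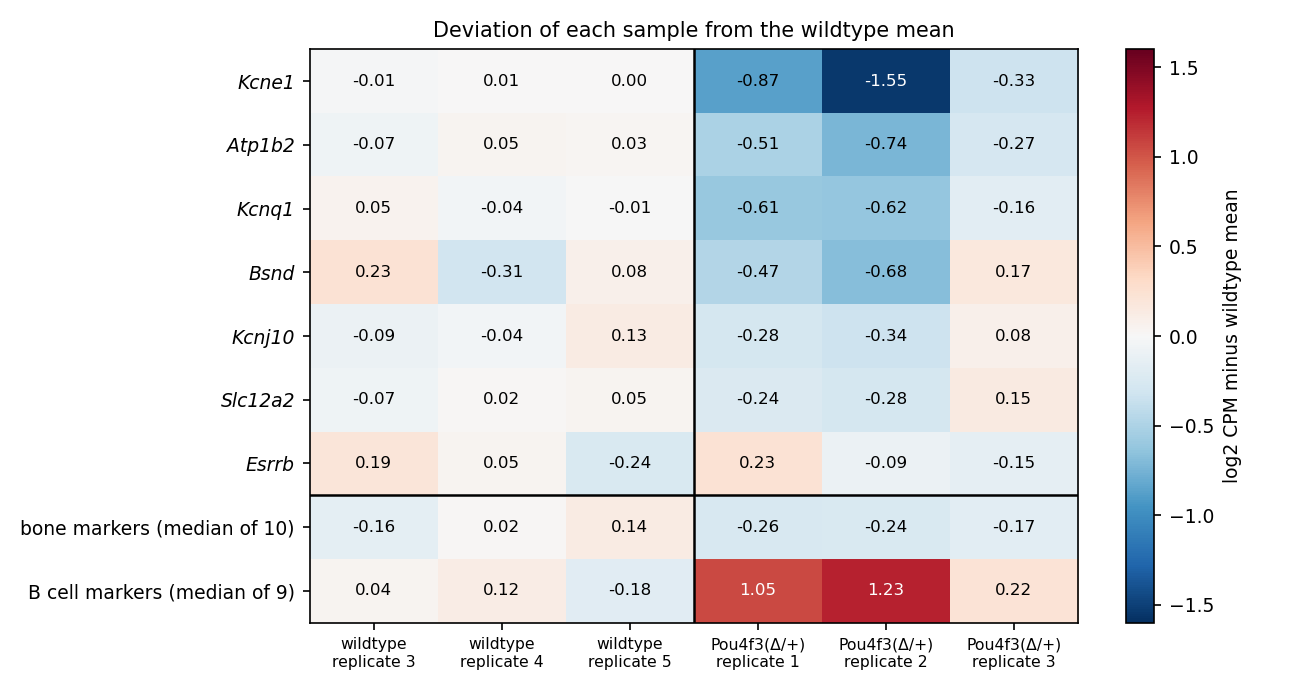
Log2 CPM of each gene minus its wildtype mean, by sample (columns), with the medians of 10 bone and 9 B cell markers in the bottom rows and the value printed in each cell. *Kcne1* reaches -1.55 in *Pou4f3(Δ/+)* replicate 2, and the B cell markers are highest in *Pou4f3(Δ/+)* replicates 1 and 2.

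The calls depended on which libraries entered. Without *Pou4f3(Δ/+)* replicate 3, *Kcne1* had a log2 fold change of -1.16 (adjusted p = 0.0284), *Atp1b2* of -0.61 (adjusted p = 0.0316) and *Kcnq1* of -0.61 (adjusted p = 0.0284) in edgeR, beside 193 of 17513 genes (1.1%) past the threshold in that fit. The genes *Bsnd*, *Kcnj10* and *Slc12a2*, at -0.60, -0.31 and -0.25, did not pass, with adjusted p from 0.144 to 0.255. In that fit 6 of the 7 genes, all but *Esrrb*, were lower at an unadjusted p under 0.05, beside 8.69% of all genes. Without *Pou4f3(Δ/+)* replicates 1 and 2, which leaves 1 mutant sample that is assumed to vary like the wildtype samples, *Kcne1* was at -0.33 (unadjusted p = 0.0128), *Atp1b2* at -0.27 (unadjusted p = 0.0322) and *Kcnq1* at -0.17 (unadjusted p = 0.190), and *Kcnj10*, *Slc12a2* and *Bsnd* turned to 0.07, 0.15 and 0.15. In that fit 2 of the 7 genes were lower at an unadjusted p under 0.05, beside 2.21% of all genes, and 0 of the 7 had an adjusted p under 0.05. DESeq2 on all 6 samples called *Atp1b2* (-0.49, adjusted p = 0.0168) and *Kcne1* (-0.83, adjusted p = 0.0359) among 64 genes (0.373% of those tested), and not *Kcnq1* (adjusted p = 0.225).

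**Figure D3:**
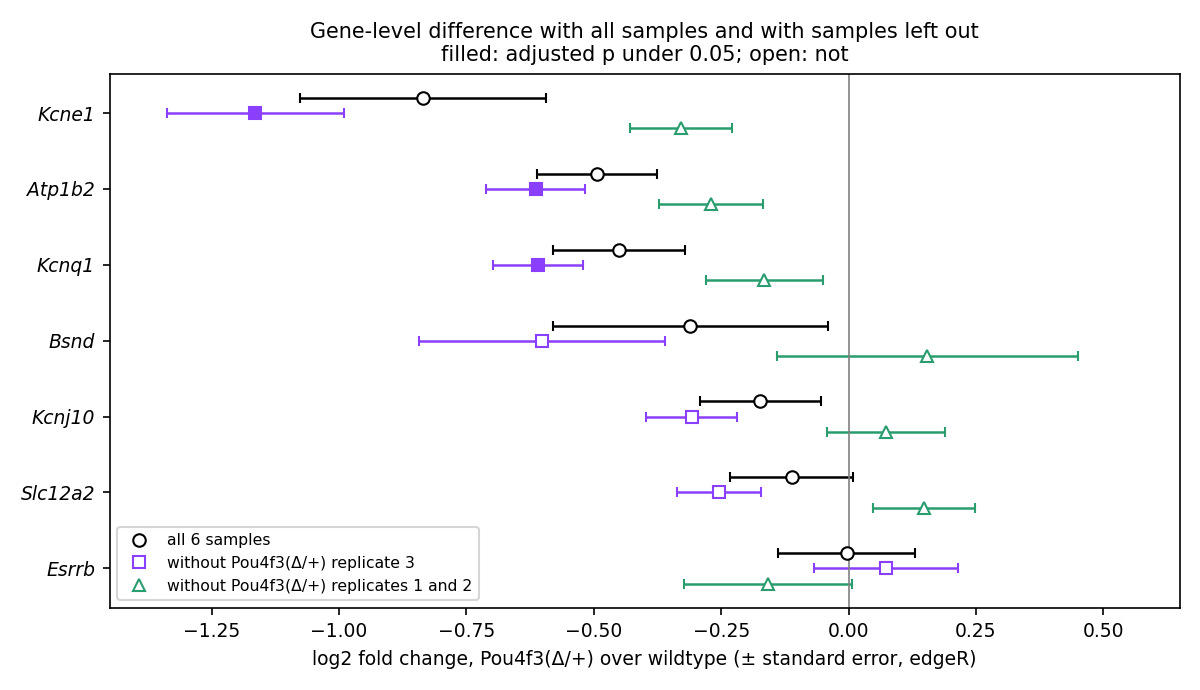
Log2 fold change of *Pou4f3(Δ/+)* over wildtype with its standard error (edgeR) for each gene, fitted with all 6 samples, without *Pou4f3(Δ/+)* replicate 3, and without replicates 1 and 2, with filled points at an adjusted p under 0.05. The 3 filled points are *Kcne1*, *Atp1b2* and *Kcnq1* without replicate 3, and the same 3 genes stay under 0 in all 3 fits.

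Ratios of 2 genes within a library do not depend on the scaling between libraries, and 6 were compared, of which 4 are given, by a two-sided exact permutation test, which with 3 against 3 samples cannot go below p = 0.1. Relative to *Kcnq1*, its partner *Kcne1* was at 3.14, 3.35 and 3.43 in wildtype and at 2.90, 1.68 and 2.64 in *Pou4f3(Δ/+)*, a log2 difference of -0.50, which was -0.26 without *Pou4f3(Δ/+)* replicate 2. In contrast, *Slc12a2* relative to *Kcnq1* was at 5.86, 6.66 and 6.61 in wildtype and at 8.03, 7.89 and 7.90 in *Pou4f3(Δ/+)*, a log2 difference of 0.32. The 3 mutant ratios, replicate 3 included, lay close together and above every wildtype ratio.

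*Kcnj10* relative to *Kcnq1* was likewise higher in every *Pou4f3(Δ/+)* sample, at 3.19, 3.12 and 3.09 against 2.37, 2.61 and 2.88 in wildtype, a log2 difference of 0.26. Each of these 3 ratios separated the groups, with the smallest possible permutation p = 0.1 and an adjusted p = 0.15 over the 6 ratios. With 3 against 3 samples no ratio could have passed the adjusted p threshold, so the test cannot decide whether they differ. All 3 ratios share *Kcnq1*, which itself separated the groups, so they are not independent of its lower level or of each other. *Esrrb* relative to *Kcnq1* overlapped between the groups (log2 difference 0.44, permutation p = 0.3), and was 0.25 without *Pou4f3(Δ/+)* replicate 1.

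**Figure D4:**
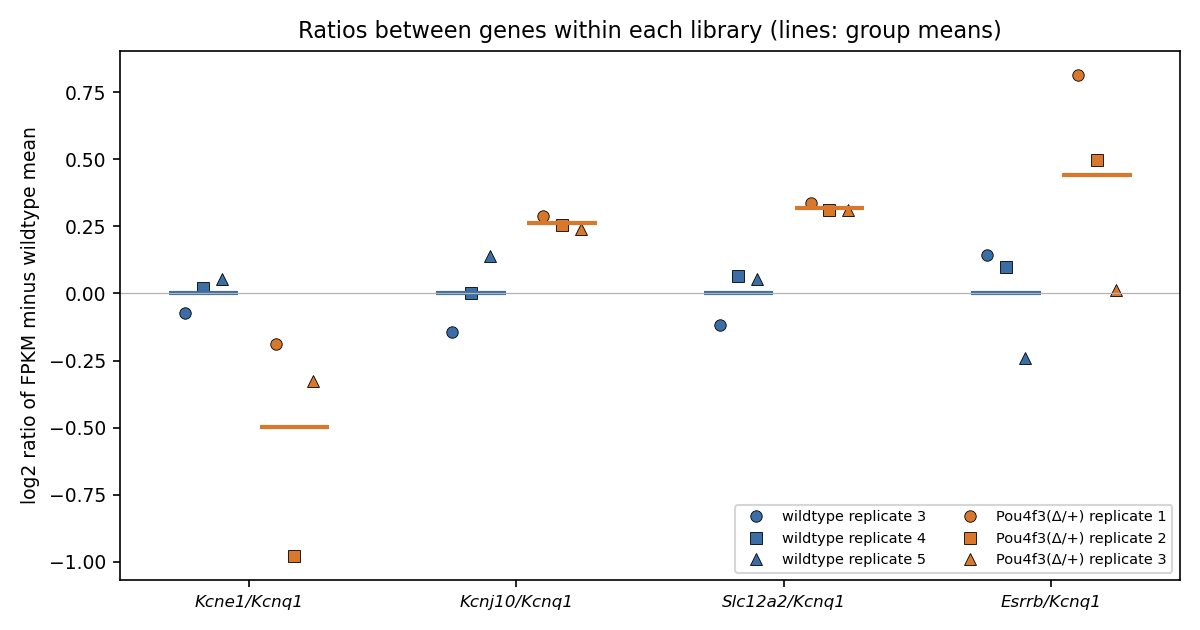
Log2 ratio of the FPKM of 2 genes within each library, minus the wildtype mean of that ratio, with points for samples and lines for group means (n = 3). *Kcne1*/*Kcnq1* lies lower, and *Kcnj10*/*Kcnq1* and *Slc12a2*/*Kcnq1* higher, in each *Pou4f3(Δ/+)* library than in each wildtype library.

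The other genes of strial ion transport mostly had smaller fitted differences than *Kcne1*, *Atp1b2* and *Kcnq1*. Of 9 tested partners in potassium secretion (ATPase subunits, their regulators and chloride channels), all 9 had log2 fold changes under 0, with a median of -0.11, and 2 had an unadjusted p under 0.05. *Fxyd1*, a regulator of the Na,K-ATPase, was at 42.2 ± 5.80 and 32.6 ± 3.997 FPKM (log2 fold change -0.38, SE 0.14, unadjusted p = 0.0244).

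Of the 8 kinases and adaptors that switch Na-K-2Cl cotransporters, 0 had an unadjusted p under 0.05 and their median was -0.06. The most abundant of them were *Wnk1*, at 151 ± 7.25 FPKM in wildtype and 159 ± 20.3 in *Pou4f3(Δ/+)*, and *Cab39*, at 63.0 ± 2.05 and 64.2 ± 0.274. Among 3 other marginal cell genes (median -0.13), also with 0 under that p, the endocytic receptor *Lrp2* was at 77.7 ± 1.44 and 64.0 ± 7.999 FPKM and the lipid transporter *Abcg1* at 18.9 ± 0.917 and 17.2 ± 1.59. In the fit on counts the log2 fold changes were -0.17 (SE 0.10) for *Lrp2*, -0.13 (SE 0.09) for *Abcg1* and 0.04 (SE 0.11) for *Heyl*, a Notch target, and the groups overlapped in log2 CPM for each. In FPKM the groups did not overlap for *Lrp2*, at 76.27 to 79.15 in wildtype and 54.77 to 69.40 in the mutant samples.

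Of 13 tested intermediate cell genes, 11 were under 0, with a median of -0.15, and 2 had an unadjusted p under 0.05. They were *Mitf*, the master transcription factor of melanocytes (14.997 ± 0.646 and 12.2 ± 1.40 FPKM, log2 fold change -0.26, SE 0.09, unadjusted p = 0.0145), and *Gsta4*, a glutathione transferase (123 ± 7.49 and 101 ± 18.6 FPKM, log2 fold change -0.28, SE 0.12, unadjusted p = 0.0399). The melanin enzyme *Dct*, an abundant gene of these cells that was named after its value was seen, lay at 130 ± 13.5 and 124 ± 4.84 FPKM.

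Basal cell genes (7 tested, median -0.18) and genes of the spiral ligament and potassium recycling (10 tested, median -0.09) had 0 genes with an unadjusted p under 0.05. The gap junction genes *Gjb2* and *Gjb6*, which link basal cells with fibrocytes, were at 201 ± 20.7 and 165 ± 40.1 FPKM and at 166 ± 12.4 and 147 ± 27.4 FPKM in wildtype and *Pou4f3(Δ/+)*. *Coch*, the fibrocyte gene for cochlin, was at 2349 ± 415 and 2091 ± 59.1 FPKM, and *Car3*, a carbonic anhydrase of fibrocytes, at 453 ± 57.0 and 324 ± 139 FPKM.

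The 16 family relatives of the 7 genes summed to 72.5 to 76.2 FPKM in wildtype, against 375 to 399 FPKM for the 7 genes themselves. Of the 14 tested, 1 had an unadjusted p under 0.05, *Slc12a3*, the Na-Cl cotransporter known from the kidney. *Slc12a3* was at 0.603 ± 0.286 FPKM in wildtype and 1.21 ± 0.140 in *Pou4f3(Δ/+)* (log2 fold change 0.89, SE 0.36, unadjusted p = 0.0357 by edgeR). These values rest on few counts, 16 to 60 per sample. The related receptors *Esrra* and *Esrrg* lay at -0.02 and -0.10 on the log2 scale. Over the 7 lists together, 4 of 64 tested genes were lower and 1 was higher at an unadjusted p under 0.05, near the 4.14% and 3.5% of all genes. Log2 fold changes were under 0 in 52 of the 64 genes, with a median of -0.11, against 8664 of 17136 genes and a median of -0.00 over all genes, and the 7 endocochlear potential genes had a median of -0.31.

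**Figure D5:**
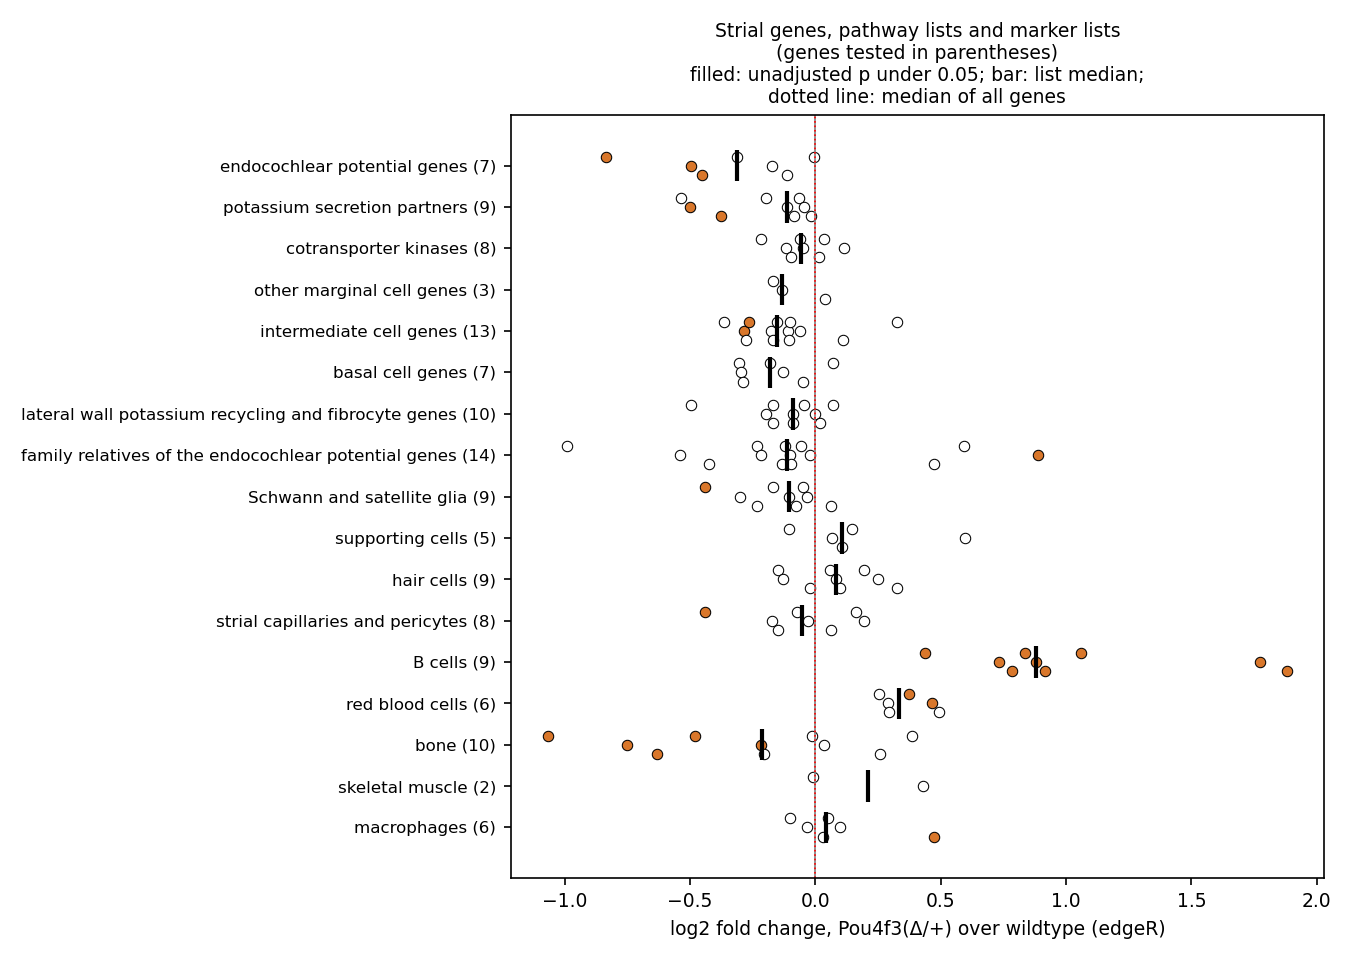
Log2 fold changes of *Pou4f3(Δ/+)* over wildtype (edgeR) for the 7 endocochlear potential genes, 7 pathway lists and 9 cell type marker lists, with filled points at an unadjusted p under 0.05 and a bar at each list's median. The 7 genes have a median of -0.31, the pathway lists medians of -0.18 to -0.06, and the B cell markers the highest median, 0.88.

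Markers of the other cell types in a cochlear sample were read beside these values. All 9 B cell markers had higher levels in *Pou4f3(Δ/+)* at an unadjusted p under 0.05 (median 0.88), with a summed FPKM of 122 to 152 among wildtype samples and 160 to 320 among mutant ones. Examples were *Cd79a* (0.92), *Cd79b* (0.88) and *Vpreb3* (1.06). Of 6 red blood cell markers, *Hbb-bt* (0.47) and *Slc4a1* (0.37) were higher at that p, and the list's summed FPKM spanned 11333 to 13010 among wildtype samples and 12251 to 17272 among the mutant samples. Of 10 bone markers, 5 were lower, *Alpl* (-1.07), *Col1a1* (-0.75), *Sp7* (-0.63), *Col1a2* (-0.48) and *Phex* (-0.22), while *Bglap* (0.38) and *Bglap2* (0.26), the genes of the osteoblast protein osteocalcin, and the osteocyte genes *Sost* (0.04) and *Dmp1* (-0.01) had p above it. The bone list's median was -0.21, 7 of its genes were under 0 and 3 above, and its summed FPKM was 854 to 1162 and 773 to 859. No marker list held a gene listed at 0 throughout.

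The 9 hair cell markers had a median of 0.08 and 0 genes with an unadjusted p under 0.05. Their summed FPKM lay between 49.1 and 50.1 among wildtype samples and between 43.3 and 53.0 among mutant ones. The most abundant were *Ocm* (27.5 ± 1.19 and 24.9 ± 3.41 FPKM) and *Myo7a* (8.79 ± 0.739 and 9.36 ± 0.901 FPKM). The 5 supporting cell markers had a median of 0.11 and 0 such genes. Of 9 markers of Schwann and satellite glia (median -0.10, summed FPKM 1722 to 2032 and 1350 to 2190), 1 was lower at that p. Of 8 markers of capillaries and pericytes (median -0.05, summed FPKM 146 to 165 and 136 to 153), 1 was lower, *Rgs5* (-0.44), a pericyte gene. Of 6 macrophage markers (median 0.04), *Cx3cr1* (0.47) was higher, and 2 of 6 skeletal muscle markers had enough counts to test (median 0.21, summed FPKM 2.93 to 5.32 and 2.97 to 5.91). The part of the B cell, red blood cell, bone, glial and pericyte markers in the levels of the strial genes was not tested.

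The 10 genes whose log2 CPM over the 6 samples was most like the mean of the standardised values of the 7 genes, out of 14797 candidates with a mean FPKM of at least 1, were *Tmem141*, *Itgbl1*, *D430040D24Rik*, *Lyplal1*, *Fam189a2*, *Tmem63c*, *Gaa*, *Sult4a1*, *Rusc1* and *Car12*. Their Pearson correlations ran from 0.988 to 0.997 and describe 6 libraries of which 2 lie low for most of the genes. *Car12*, a carbonic anhydrase, was at 31.7 ± 0.762 FPKM in wildtype and 27.4 in the *Pou4f3(Δ/+)* mean, and *Tmem141*, first in the list, at 8.63 ± 0.304 and 6.53 FPKM.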

How the data were processed

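Cochlear RNA was sequenced with paired-end reads in 3 wildtype and 3 *Pou4f3(Δ/+)* samples, after poly(A) selection or rRNA removal (the labels name both). The authors deposited expected counts per transcript, which are estimated and not normalized (82.2% of those above 0 were not whole). The authors also deposited FPKM per transcript, scaled to transcript length and to the summed counts. The submitters' processing notes name DESeq2 and the build mm8, and the aligner and counting program were not given in the sources used here. Of the 128603 transcripts, 99.5% were found in GENCODE M21 for GRCm38, which gave the coordinates.

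Both measures were summed per gene symbol, and the counts were rounded. edgeR 4.0.16 (R 4.3.3) tested *Pou4f3(Δ/+)* against wildtype without covariates (filterByExpr with minimum count 10 and minimum total 15, TMM, quasi-likelihood test, Benjamini-Hochberg adjustment over all genes or transcripts, two-sided). Each standard error was the size of the log2 fold change over the root of F, and log2 CPM used a prior count of 2. The scripts were tested on simulated counts. Ratios of FPKM were compared by exact permutation (SciPy 1.17.1, NumPy 2.4.6, pandas 2.3.3, Python 3.11.15). Alternatives were DESeq2 1.42.0, other size factors, no filter, limma 3.58.1 on log2(FPKM + 0.5, 0.1 or 1), counts in place of FPKM in the ratios, and samples left out. No 2 libraries agreed within counting noise (chi-square per degree of freedom of at least 7.35).

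The 7 genes, the pathway lists and the marker lists were chosen with earlier results of these data known. Named genes were the 7 genes, their transcripts with at least 10% of the FPKM or an unadjusted p under 0.05, the genes of each list with an unadjusted p under 0.05 or otherwise the 2 most abundant, and the 10 genes most alike in pattern. *Dct*, *Heyl*, *Esrra*, *Esrrg*, *Kcnq1ot1* and the bone markers without such a p, named outside this rule, were chosen after their values were seen. Some items that the rule selects are not reported here. No symbol that reads as a date (24 of them) was named.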

Additional observations from a re-analysis of the deposited data

How the results depend on the processing

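No paired analysis was possible because the genotypes share only replicate number 3. With 3 samples a group and 2 *Pou4f3(Δ/+)* libraries standing apart, the counts of calls depended on the settings, and causes were not tested. Genes past the adjusted threshold numbered 0 in edgeR with all 6 samples (1309 at an unadjusted p under 0.05), 64 with DESeq2, 9 without the filter, 1 with limma on log2(FPKM + 0.1), 6 without *Pou4f3(Δ/+)* replicates 1 and 2, and 0 to 193 when 1 sample was left out. Transcripts numbered 0, 130 with DESeq2, 1 without the filter, and 0 to 3 with 1 sample left out.

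With 1 sample left out, log2 fold changes ran from -0.61 to -0.37 for *Kcnq1*, -1.16 to -0.58 for *Kcne1*, -0.61 to -0.39 for *Atp1b2*, -0.31 to -0.10 for *Kcnj10*, -0.25 to -0.03 for *Slc12a2*, -0.60 to -0.14 for *Bsnd* and -0.13 to 0.10 for *Esrrb*. Over 14 alternatives, *Atp1b2* and *Kcne1* passed the adjusted threshold in 2 (DESeq2 at -0.49 and -0.83, and without *Pou4f3(Δ/+)* replicate 3), *Kcnq1* in 1, and the other 4 genes in 0. The adjusted p ranged from 0.0168 to 1.00 for *Atp1b2*, 0.0284 to 1.00 for *Kcne1* and 0.0284 to 1.00 for *Kcnq1*. *Esrrb* was at 0.00039 without the filter, and above 0 without *Pou4f3(Δ/+)* replicate 2 or 3 or wildtype replicate 3 or 4 (0.04, 0.07, 0.10 and 0.02). Without *Pou4f3(Δ/+)* replicates 1 and 2, *Kcnj10*, *Slc12a2* and *Bsnd* reversed to 0.073, 0.15 and 0.15.

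In that fit list medians were 0.025 for secretion partners, -0.019 for cotransporter kinases, -0.031 for intermediate cells, -0.015 for basal cells, 0.055 for the lateral wall, -0.028 for family relatives, 0.16 for glia, 0.21 for B cells and -0.018 for red blood cells. With 1 sample left out, medians ran from -0.60 to -0.14 for the 7 genes, -0.062 to -0.021 for cotransporter kinases, -0.21 to -0.062 for other marginal cell genes, -0.18 to -0.058 for family relatives, -0.19 to -0.05 for secretion partners, -0.20 to -0.08 for intermediate cells, -0.33 to -0.11 for basal cells, -0.14 to -0.02 for the lateral wall, 0.026 to 0.26 for hair cells, -0.12 to 0.20 for macrophages, -0.30 to -0.10 for bone, -0.16 to -0.05 for glia, 0.04 to 0.15 for supporting cells, -0.10 to 0.016 for capillaries and -0.35 to 0.63 for skeletal muscle. The hair cell median was 0.025, 0.030 and 0.021 with limma on log2(FPKM + 0.5, 0.1 and 1), and the skeletal muscle median -0.29 without the filter. Ratios ran from -0.65 to -0.26 for *Kcne1*/*Kcnq1*, 0.19 to 0.33 for *Kcnj10*/*Kcnq1*, 0.26 to 0.35 for *Slc12a2*/*Kcnq1* and 0.25 to 0.66 for *Esrrb*/*Kcnq1* with 1 sample left out.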
